A study of Mus musculus with 4 samples.

Results

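Hox genes, the homeobox genes of the 4 mammalian Hox clusters, were taken from RNA-seq of primary mouse ear fibroblasts by their names: every gene of the count tables whose mouse symbol is Hoxa, Hoxb, Hoxc or Hoxd followed by a number. There were 39 such genes among the 55536 genes of the tables, 11 in the Hoxa cluster, 10 in Hoxb, 9 in Hoxc and 9 in Hoxd. The fibroblasts came from ear clippings of C57BL/6 mice, grew in DMEM with 10% fetal calf serum, received KN93, which blocks CaMKII and synchronises the cell cycle, for 48 h and were then transfected for 24 h. The 4 libraries are 1 each of whole-cell RNA and of RNA pulled down with an antibody to fibrillarin, from cells named AF357425-High and cells named AF357425-Low. AF357425 is a C/D box small nucleolar RNA of the imprinted Dlk1-Dio3 locus, and fibrillarin is the methyltransferase that C/D box small nucleolar RNAs guide to their targets. The sample labels name overexpression for High and inhibition for Low, whereas the treatment protocol names gapmers against AF357425 or a scrambled control, so which transfection each state received is not settled here.

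Hox genes code for homeodomain transcription factors, and their order along each cluster follows the order in which they are used from the head to the tail of the embryo. The numbers in their names are paralog groups: low numbers lie at the end used in the hindbrain and pharyngeal arches, and high numbers at the end used in the lumbar and tail regions and the distal limbs. Adult fibroblasts are known to keep a Hox pattern that records where in the body they came from. The outer ear forms largely from the mesenchyme of the second pharyngeal arch, which is specified by Hoxa2. Polycomb complexes keep unused Hox genes silent, MLL complexes keep used ones active, retinoic acid induces genes at the anterior end, and the Hox proteins bind DNA together with the TALE homeodomain proteins of the Pbx and Meis families.

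With 1 library in each group there was no replicate error and no test of High against Low. Each value therefore carries a 95% interval for counting error alone, and since these were PCR-amplified reads without molecular identifiers, the intervals and the floors below are too narrow for the biology. Gene-assigned reads numbered 22082565 (High) and 21693030 (Low) for whole-cell RNA, and 25857770 (High) and 27832061 (Low) for the pulldown. A gene with 0 reads may be present at up to 3 reads, which is between 0.108 and 0.138 CPM (reads per 1000000 gene-assigned reads) across the libraries. Markers fixed for fibroblasts summed to 41500 and 51900 CPM in High and Low whole-cell RNA, of which Fn1 alone gave 31430 and 40330. All 12 were detected in every library, and 10 exceeded 1 CPM in each whole-cell library. Endothelial cell markers summed to 7.61 and 8.07 CPM in whole-cell RNA and melanocyte markers to 10.6 and 7.28. The sums were 3.4 and 3.27 for immune cells, 3.35 and 2.9 for Schwann cells, 1.54 and 1.8 for skeletal muscle and 0.362 and 0.599 for adipocytes. The part of these cells in the Hox values was not tested. Keratinocyte markers summed to at most 0.83 CPM, with Krt14 and Krt1 at 0 reads in all libraries. Of the 7 chondrocyte markers, Col2a1 (1922 and 766 reads) and Cnmd (99 and 14 reads) were higher in the High whole-cell library beyond 2-fold, and the list summed to 263 and 185 CPM in whole-cell RNA. Its part in the Hox values was not tested. The pulldown libraries differ in makeup: the 2 mitochondrial ribosomal RNAs took 63.4% and 59.8% of their gene-assigned reads, and 0.0926% and 0.0583% of those of the whole-cell libraries.

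The promoters of 3 genes are printed to show the DNA just before a strongly read gene, a weaker read gene and a gene without a read, all in the Hoxa cluster on the minus strand of chromosome 6. Each run holds the 250 bases before the gene start from RefSeq (mouse GRCm38.p6), 5′ to 3′ on the gene's strand. Capitals mark TGATNNAT, a composite motif of Pbx and Hox proteins, and TGACAG, a Meis motif, each searched on both strands. The Hoxa2 run is chr6:52164832-52165081, the Hoxa5 run chr6:52204588-52204837 and the Hoxa11 run chr6:52245811-52246060.
Hoxa2: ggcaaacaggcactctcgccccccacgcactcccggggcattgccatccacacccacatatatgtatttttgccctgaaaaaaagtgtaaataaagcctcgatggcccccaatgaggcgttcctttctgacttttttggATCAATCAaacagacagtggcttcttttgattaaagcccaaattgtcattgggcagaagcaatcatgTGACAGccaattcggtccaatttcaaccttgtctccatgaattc
Hoxa5: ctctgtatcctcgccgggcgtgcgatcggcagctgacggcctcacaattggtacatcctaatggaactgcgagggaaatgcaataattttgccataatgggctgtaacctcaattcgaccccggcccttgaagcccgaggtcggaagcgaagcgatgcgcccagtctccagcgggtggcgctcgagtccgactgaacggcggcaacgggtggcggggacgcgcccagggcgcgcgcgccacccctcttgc
Hoxa11: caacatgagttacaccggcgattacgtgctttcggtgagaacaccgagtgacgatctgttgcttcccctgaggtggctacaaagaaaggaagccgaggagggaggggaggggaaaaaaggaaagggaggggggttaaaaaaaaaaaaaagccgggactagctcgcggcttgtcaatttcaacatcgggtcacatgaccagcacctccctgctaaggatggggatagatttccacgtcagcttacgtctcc
Hoxa2, the most read Hox gene of the data, held 1 match to each motif, which do not overlap, while Hoxa5 and Hoxa11 held neither. Over the 24 Hox promoter windows given by RefSeq, for 22 genes, TGATNNAT was in 16.7% and TGACAG in 8.33%. Among all 32851 promoter windows of the same length the shares were 7.68% and 15.9%. The Hox windows had a median of 12.5 CpG sites and 58.6% GC, against 6 CpG sites and 52.4% GC over all windows. The Hoxa2 window is poorer in both than the Hox median, with 6 CpG sites and 46.4% GC, and the Hoxa5 window is richer, with 28 CpG sites and 63.6% GC. A match is only a run of letters, and these data do not measure binding.

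The ear fibroblasts had reads from the anterior end of the Hoxa cluster, from Hoxc13 and, at lower levels, from a few genes of Hoxb and Hoxd. Of the 39 Hox genes, 13 had 0 reads in all 4 libraries, 14 had between 1 and 9 reads summed over the libraries and 12 had at least 10. All Hox genes together took 458 reads (20.7 CPM, interval 18.9 to 22.7) in the High whole-cell library and 373 reads (17.2 CPM, 15.5 to 19.0) in the Low one. In the pulldown they took 173 reads (6.69 CPM, 5.73 to 7.77) in High and 264 reads (9.49 CPM, 8.38 to 10.7) in Low. These are low counts, and in bulk RNA few cells with many Hox transcripts and many cells with few cannot be told apart.

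**Figure D1:**
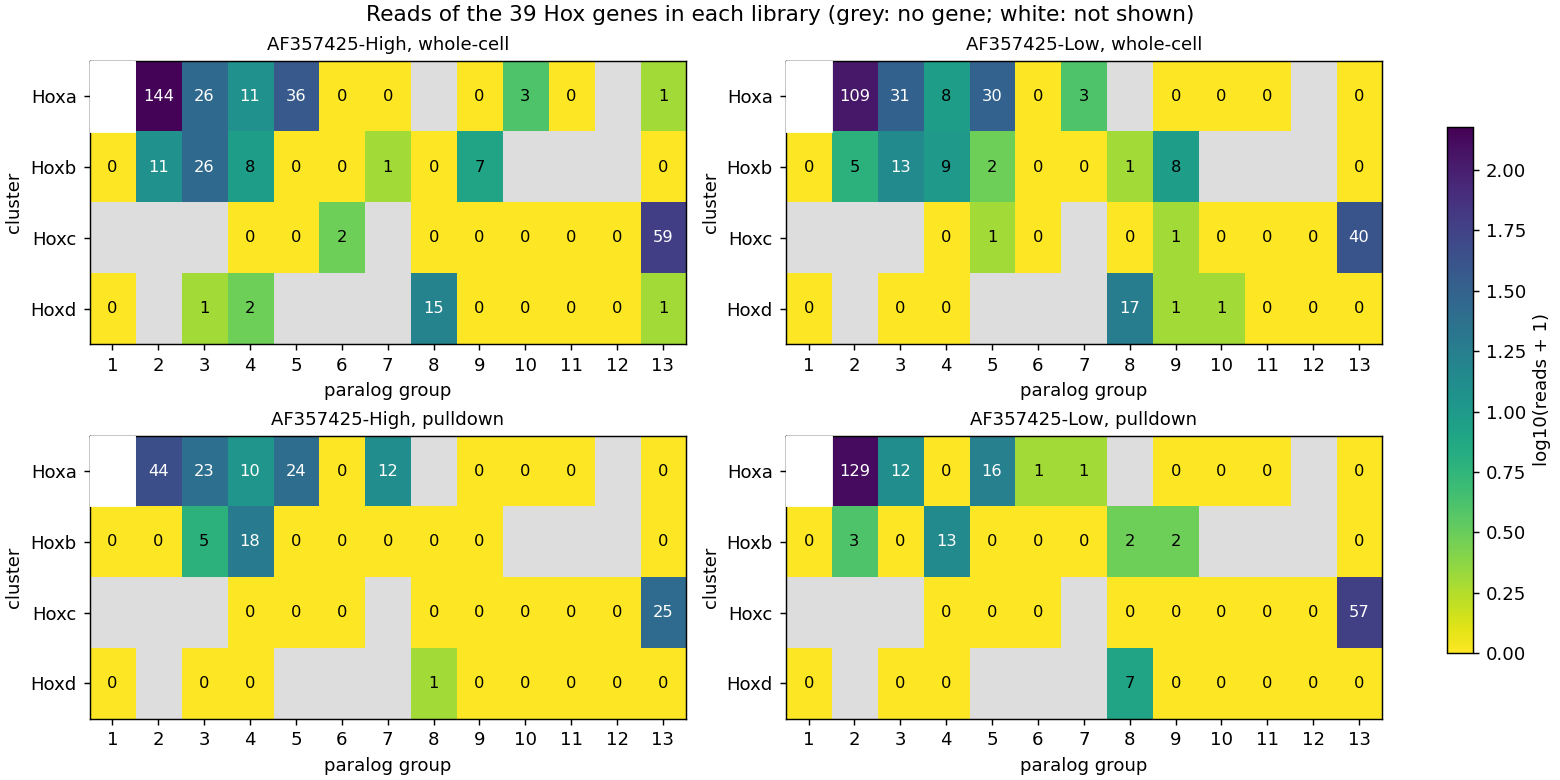
Reads of each Hox gene in the 4 libraries, with the 4 clusters as rows and paralog groups 1 to 13 as columns; the number in a box is the read count, colour is log10(reads + 1) grey boxes have no gene and the white box is not shown. The filled boxes lie at the left of the Hoxa row and at Hoxc13, and the genes from Hoxa9 to Hoxa13, from Hoxc4 to Hoxc12 and all of Hoxd but Hoxd8 stay at 0 to 3 reads.

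By cluster, Hoxa held 71.0% (66.6 to 75.1, exact binomial interval) of the Hox reads in High whole-cell RNA and 73.5% (68.7 to 77.9) in Low. It held 71.7% and 68.2% in the High and Low pulldowns, so its share was alike in the 4 libraries within counting error. Within Hoxa the reads fell off after Hoxa5, sharply in every library but the High pulldown. Hoxa5 still had 36, 30, 24 and 16 reads in the High and Low whole-cell and High and Low pulldown libraries. The 6 genes from Hoxa6 to Hoxa13 together had 4, 3, 12 and 2. All 12 reads in the High pulldown came from Hoxa7. Hoxb held 11.6% and 10.2% of whole-cell Hox reads, Hoxc 13.3% and 11.3%, and Hoxd 4.15% and 5.09%. Almost all Hoxc reads came from the last gene, Hoxc13: the other 8 genes, Hoxc4 to Hoxc12, had 2 and 2 reads in whole-cell RNA and 0 in both pulldowns.

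By position, paralog groups 1 to 3 held 68.1% and 67.3% of Hox reads in High and Low whole-cell RNA, groups 4 to 8 held 16.4% and 19.0%, and groups 9 to 13 held 15.5% and 13.7%. In the whole-cell libraries the positional profile was thus the same in both states within counting error. Of the 16 genes of groups 9 to 13, 8 had no read in any library and 1, Hoxc13, reached 10 reads in a library. Posterior genes known from distal limb and tail were at or near 0: Hoxa13, which patterns digits and the genital tubercle, had 1 read in 1 library, Hoxd13, also a digit gene, had 1 read in 1 library, and Hoxa11, a gene of the forearm, had none.

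Hoxa2, the selector gene of the second pharyngeal arch, was read 144 times (6.52 CPM, interval 5.50 to 7.68) in the High whole-cell library and 109 times (5.03 CPM, 4.13 to 6.06) in the Low one. In the pulldown it had 44 reads (1.70 CPM) in High and 129 reads (4.64 CPM) in Low. The interval of the Low pulldown (3.87 to 5.51) overlapped that of Low whole-cell RNA, and the High pulldown (1.24 to 2.28) lay below the other 3 libraries with no overlap of intervals. Hoxa2 spans chr6:52162417-52164831 and overlaps no other gene of RefSeq. The annotation used for counting is not stated, so an overlap there cannot be checked.

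Hoxc13, a regulator of hair and nail keratins, was the only Hox gene of groups 9 to 13 with more than 10 reads in a library. It had 59 reads (2.67 CPM, 2.03 to 3.45) in High and 40 reads (1.84 CPM, 1.32 to 2.51) in Low whole-cell RNA, and 25 reads (0.967 CPM) and 57 reads (2.05 CPM) in the High and Low pulldowns. As for Hoxa2, the High pulldown was the lowest library, but its interval (0.626 to 1.43) overlapped that of Low whole-cell RNA, and the intervals of the other 3 libraries overlapped one another. Its gene, chr15:102921131-102928814, overlaps no other gene of RefSeq. Keratinocyte markers summed to 0.498 and 0.83 CPM in whole-cell RNA and to 0.271 and 0.18 CPM in the pulldowns. That list holds no hair or nail keratin, and the cell source of the Hoxc13 reads was not tested.

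Hoxa5, a gene of the lung and the cervical and upper thoracic skeleton, had 36 reads (1.63 CPM) and 30 reads (1.38 CPM) in High and Low whole-cell RNA. Its pulldown reads were 24 (0.928 CPM) in High and 16 (0.575 CPM) in Low. Hoxa3, needed for the thymus and parathyroid of the third pharyngeal arch, had 26 reads (1.18 CPM) and 31 reads (1.43 CPM) in whole-cell RNA, and 23 (0.89 CPM) and 12 (0.431 CPM) in the pulldowns. For both genes the intervals of the whole-cell libraries overlapped, and the Low pulldown was the lowest of the 4, the reverse of Hoxa2 and Hoxc13. The Hoxa3 annotation is 44009 bases long and overlaps 8 other genes, among them Hoxa4, Hoxa5 and Hoxaas2, so the split of reads between these genes is uncertain. Ambiguous fragments, left out of every gene, made up 1.05% (High) and 1.09% (Low) of whole-cell fragments and 9.38% (High) and 8.54% (Low) of pulldown fragments.

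**Figure D2:**
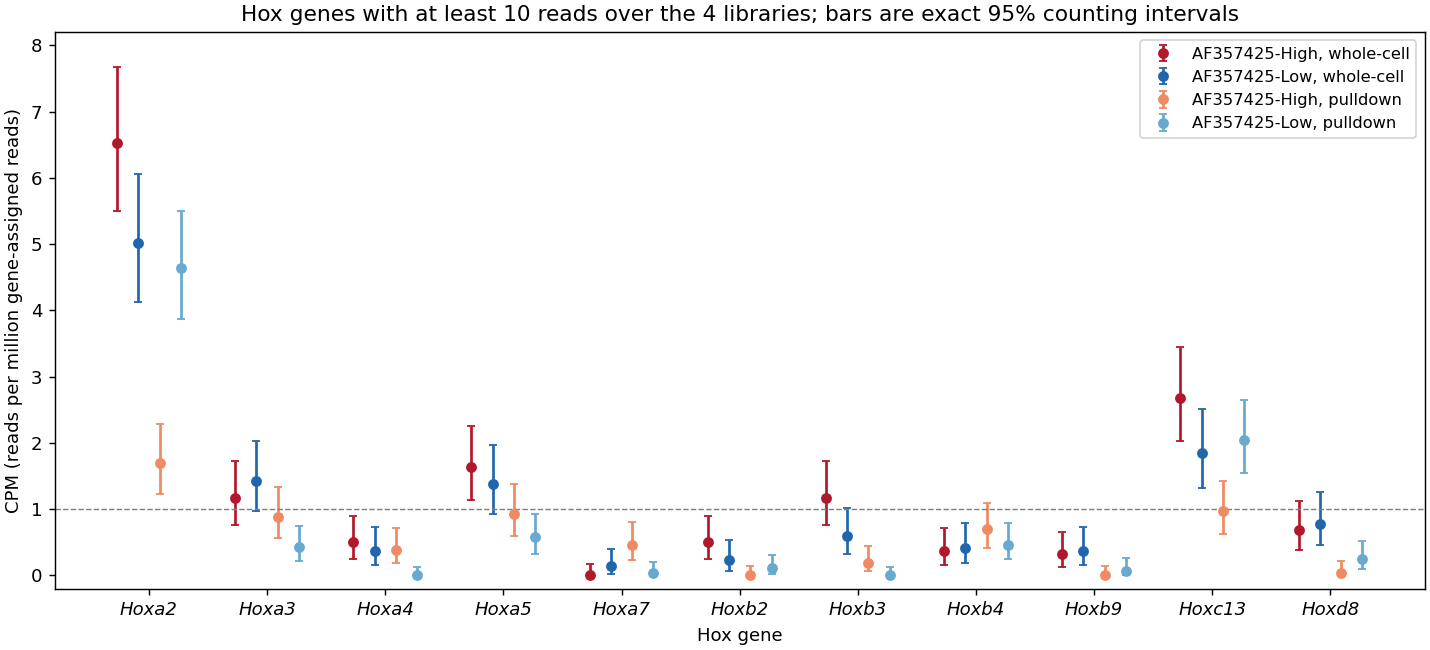
Level of 11 of the 12 Hox genes with at least 10 reads over the 4 libraries, in CPM; points are single libraries, bars are exact 95% counting intervals and the dashed line is 1 CPM. Hoxa2 and Hoxc13 are lowest in the High pulldown, and Hoxa3 and Hoxa5 in the Low pulldown.

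The other members with reads were near the floor. Hoxb3, a hindbrain and pharyngeal arch gene, had 26 reads in High whole-cell RNA, 13 in Low, and 5 and 0 in the pulldowns, and overlaps Hoxb4. Hoxb4, known from the cervical vertebrae and from blood stem cells, had 8 and 9 whole-cell reads and 18 and 13 pulldown reads, and was the only member with a higher CPM in both pulldowns than in both whole-cell libraries (0.696 and 0.467 against 0.362 and 0.415 CPM), with overlapping intervals. Hoxd8, a gene of the trunk, had 15 and 17 whole-cell reads and 1 and 7 pulldown reads.
These are counts at which a single read moves the level visibly. Hoxa4 had 11, 8, 10 and 0 reads in the High whole-cell, Low whole-cell, High pulldown and Low pulldown libraries, Hoxb2 had 11, 5, 0 and 3, Hoxb9 had 7, 8, 0 and 2, and Hoxa7 had 0, 3, 12 and 1. Hoxa7 stands out among them as the only one whose reads came mostly from 1 pulldown. The 14 members with 1 to 9 reads in all, Hoxa6, Hoxa10, Hoxa13, Hoxb5, Hoxb7, Hoxb8, Hoxc5, Hoxc6, Hoxc9, Hoxd3, Hoxd4, Hoxd9, Hoxd10 and Hoxd13, had at most 3 reads in a library. The 13 members without a read were Hoxa9, Hoxa11, Hoxb1, Hoxb6, Hoxb13, Hoxc4, Hoxc8, Hoxc10, Hoxc11, Hoxc12, Hoxd1, Hoxd11 and Hoxd12.

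Levels of different genes were set side by side per kilobase of the gene's RefSeq span, which counts introns too. On this scale Hoxa2 was at 2.70 and 2.08 CPM per kilobase in High and Low whole-cell RNA, Hoxa5 at 0.575 and 0.488, and Hoxc13 at 0.348 and 0.24. The order Hoxa2, Hoxa5, Hoxc13 was the same in both states. In CPM, without division by span, Hoxc13 was above Hoxa5 in High (2.67 against 1.63) and in Low (1.84 against 1.38). The order of Hoxa5 and Hoxc13 thus depends on their spans, and exon lengths were not available. Per kilobase, the counting intervals of Hoxa5 and Hoxc13 overlapped in the High library, and those of Hoxa2 and Hoxa5 did not overlap in either library. Hoxa3 and Hoxb3 come out at 0.0325 CPM per kilobase or less in each whole-cell library, and their spans of 44009 and 40830 bases are mostly not exon, so this scale understates them.

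**Figure D3:**
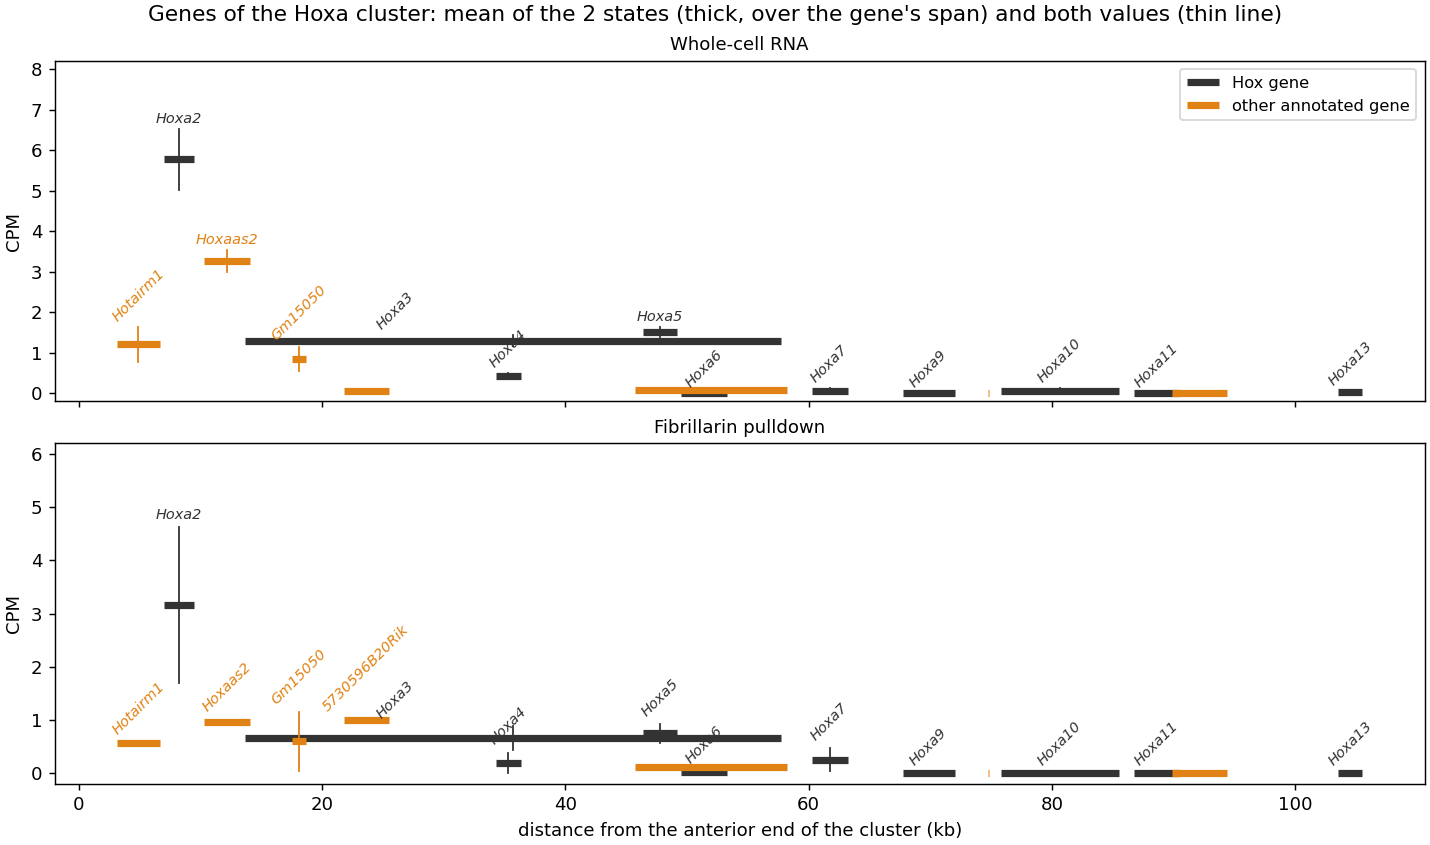
The Hoxa cluster drawn to scale from its anterior end, with distance in kilobases on the x axis and CPM on the y axis; a thick bar covers a gene's span at the mean of the High and Low libraries, and a thin line joins their values. Reads gather in the genes from Hoxa2 to Hoxa5 and the noncoding genes near them, and the genes from Hoxa6 to Hoxa13 lie near 0 in whole-cell RNA.

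Other genes inside the clusters were read too. Between the first and last Hox gene of the 4 clusters RefSeq lists 31 other genes, of which 20 had an identifier in the tables and 9 had a read. Hoxaas2, an antisense RNA of the Hoxa3 region, had 78 and 65 reads in High and Low whole-cell RNA and 26 and 26 in the pulldowns. Hotairm1, a noncoding RNA, had 36 and 17 whole-cell reads and 15 in each pulldown. Both lie at the anterior end of Hoxa, where the coding reads are. Elsewhere, Hotair in Hoxc, Hoxa11os in posterior Hoxa and Haglr at the anterior end of Hoxd had 0 reads in all libraries. Hottip beyond Hoxa13 and the Mir10, Mir196 and Mir615 genes had 0 reads too. The whole-cell libraries are labelled long RNA, so 0 reads at a microRNA gene do not speak to its mature microRNA. Gm11539, a pseudogene between Hoxb9 and Hoxb13 singled out after its values were seen, had 1 and 0 whole-cell reads and 13 reads in each pulldown.

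A pair of poorly described noncoding genes within the Hoxa3 span gave the widest differences between libraries, and both were singled out after their values were seen. 5730596B20Rik had 1 and 1 read in whole-cell RNA and 26 and 28 reads in the High and Low pulldowns. Its pulldown to whole-cell log2 ratio was 4.47 (1.87 to 9.83) in High and 4.45 (1.85 to 9.80) in Low on library totals. Gm15050 had 12 and 25 whole-cell reads and 1 and 32 pulldown reads, so that its High against Low log2 ratio in the pulldown was -4.60 (-9.95 to -2.02). Neither lower count exceeds 1 read, and both genes share their place with Hoxa3.

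Whether the state of AF357425 moves with Hox expression was asked first in whole-cell RNA. A gene was called different where its whole counting interval lay beyond 2-fold, and was measured where its mean over the pair was at least 1 CPM. High was compared with Low after trimmed mean of M values (TMM) scaling. In whole-cell RNA, 5 of 39 Hox genes were measured and 0 were called in either direction, against 0.111% of all 13519 measured genes called higher and 0.133% called lower. With so few calls over all genes, 0 of 5 is near the background and is not a result about Hox genes. The log2 ratios were 0.31 (-0.06 to 0.68) for Hoxa2, -0.34 (-1.15 to 0.46) for Hoxa3, 0.17 (-0.57 to 0.92) for Hoxa5 and 0.47 (-0.13 to 1.09) for Hoxc13. These intervals included 0, and for Hoxa2 and Hoxa5 they excluded a 2-fold difference in either direction. The median of the 5 measured genes was 0.17, beside -0.01 over all measured genes. Summed over all Hox genes the log2 ratio was 0.21 (0.01 to 0.41), a ratio of 1.15.

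In the fibrillarin pulldown, 2 of 39 Hox genes were measured and 0 were called, against 3.43% of all 10736 measured genes called higher in High and 2.90% called lower. Hoxa2 had a log2 ratio of -1.15 (-1.68 to -0.65) and Hoxc13 of -0.79 (-1.53 to -0.09): both intervals lay below 0 without passing 2-fold as a whole. Hoxa2 passed a 1.5-fold line, as did 7.85% of all measured genes in that direction. Among members under 1 CPM, Hoxa3 had 1.34 (0.27 to 2.48) and Hoxa5 0.99 (0.01 to 1.996). Without a filter on low counts, Hoxa7 (12 and 1 reads, 3.99, 1.23 to 9.40) and Hoxa4 (10 and 0 reads, at least 4.40-fold higher in High against the floor of 3 reads, with the lower end of its log2 counting interval at 1.57) lay beyond 2-fold, as did 4.07% of all 22896 genes with a read. Hoxa2 took 129 of the 264 Hox reads of the Low pulldown and 44 of the 173 of the High pulldown.

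The positional shares of the pulldowns differed too. Groups 1 to 3 held 48.0% (40.3 to 55.7) of Hox reads in the High pulldown and 62.5% (56.4 to 68.4) in the Low pulldown. Groups 4 to 8 held 37.6% (30.3 to 45.2) and 15.2% (11.1 to 20.1). The central genes were thus a larger share of the High pulldown than of the Low pulldown and of either whole-cell library, with intervals that do not overlap. As summed reads, groups 4 to 8 had 65 in High and 40 in Low, a log2 ratio of 1.10 (0.51 to 1.71), and groups 1 to 3 had 83 and 165, a log2 ratio of -0.59 (-0.99 to -0.20). Reads of groups 4 to 8 in the High pulldown came from Hoxa5 (24), Hoxb4 (18), Hoxa7 (12), Hoxa4 (10) and Hoxd8 (1). The lower sum of groups 1 to 3 in High came mainly from Hoxa2, with 44 reads in High and 129 in Low. Hoxa3 (23 and 12) and Hoxb3 (5 and 0) had more reads in High, and Hoxb2 (0 and 3) had fewer. The anterior genes thus did not move as a class. These comparisons rest on 1 pulldown per state, and the spread between pulldowns of the same state is unknown.

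**Figure D4:**
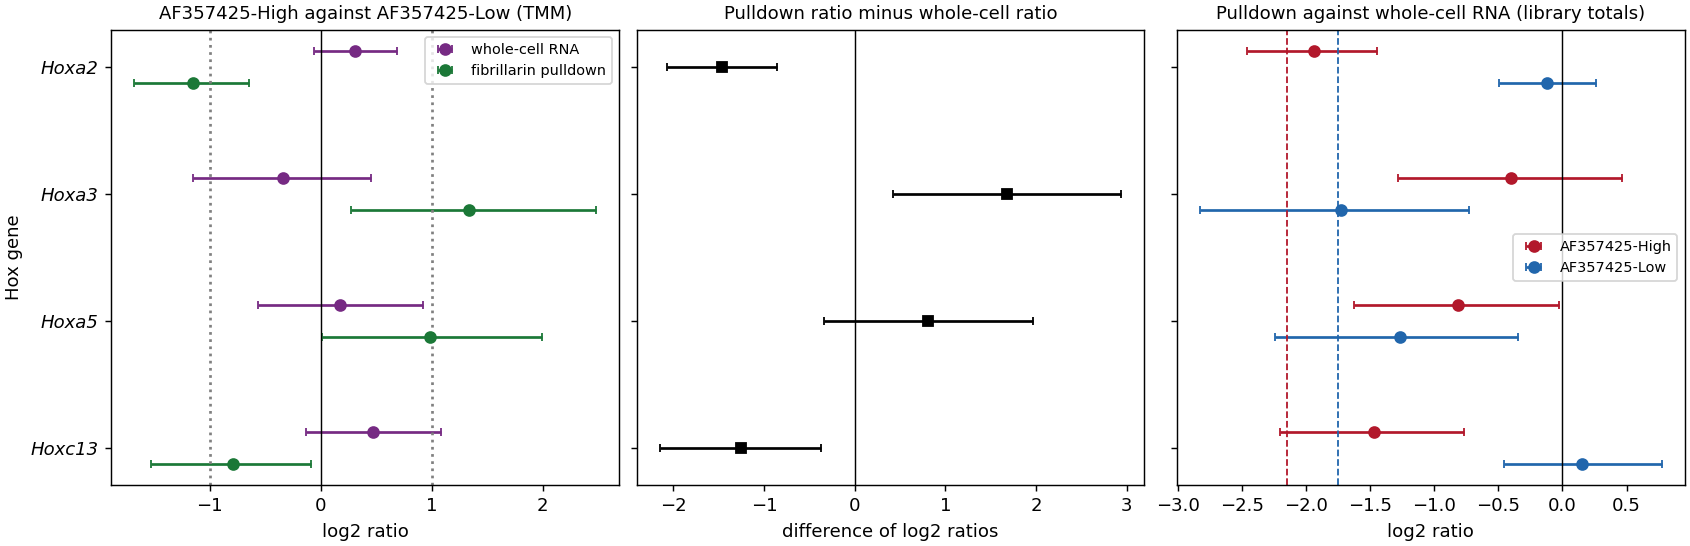
Log2 ratios of 4 of the 5 Hox genes that reached 10 reads in all 4 libraries, with 95% counting intervals. Left, High against Low for both kinds of library (dotted lines, 2-fold); middle, the pulldown ratio minus the whole-cell ratio; right, pulldown against whole-cell RNA on library totals, with dashed lines at the median of all measured genes in each state. Whole-cell ratios sit around 0, while in the pulldown Hoxa2 and Hoxc13 lie below 0 and Hoxa3 and Hoxa5 above it.

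The difference of the pulldown ratio from the whole-cell ratio was taken where a gene reached 10 reads in all 4 libraries, as 5 Hox genes did. It was -1.46 (-2.07 to -0.85) for Hoxa2 and -1.26 (-2.15 to -0.37) for Hoxc13, so for both the pulldown ratio lay below the whole-cell ratio. It was 1.68 (0.43 to 2.94) for Hoxa3, in the other direction. For Hoxa5 (0.81, -0.34 to 1.96) the interval included 0. Over all 11356 such genes 56.7% had an interval without 0 and the median was 0.00, so that 3 of 5 is near the background. None of the 5 Hox genes passed 2-fold as a whole interval, against 4.31% of all.

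Which Hox RNAs the pulldown holds was read against whole-cell RNA of the same state, on library totals. Most genes were lower in the pulldowns on this scale: the median log2 ratio of all measured genes was -2.15 in High and -1.75 in Low, and -0.70 and -0.43 on totals without the 2 mitochondrial ribosomal RNAs. Of 3 Hox genes measured in both states, 1 was called lower in both, and Hoxa2 and Hoxc13 were not, against 60.6% of all 12382 genes called lower and 1.42% called higher. With High alone 2 of 5 measured Hox genes, Hoxa2 among them, were called lower (74.1% of all genes), and with Low alone 1 of 3 (62.4%). Under TMM scaling, which moves the median of all genes by 1.84 and 1.43, 18.0% of genes and no Hox gene were called lower in both states. Without a filter on low counts Hoxb3 was called lower in both states as well, against 37.7% of all genes. In High alone, Hoxb2 and Hoxd8 were also called lower without the filter. Hoxa7 was called higher there, with 12 pulldown and 0 whole-cell reads, at least 3.42-fold against the floor of 3 reads. In Low Hoxa7 had 1 and 3 reads and was not called. Without the filter Hoxa4 was called lower in Low, with 0 pulldown and 8 whole-cell reads, at least 3.42-fold against the same floor. Among measured genes 308 of 12773 were called higher in High, but Hoxa7 was under 1 CPM and not among the measured genes. The share of all genes called in a single state without the filter is not given here. These unfiltered calls are therefore not results about Hox genes.

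The members were then read relative to the median of all genes measured in the same state, and the percentages of genes below are over those genes too. Hoxa2 was at -1.94 (-2.46 to -1.44) in High, which is at the median, and at -0.12 (-0.50 to 0.26) in Low, where 87.5% of genes were lower. Hoxc13 was at -1.47 (-2.20 to -0.77) in High and 0.15 (-0.46 to 0.77) in Low, where 91.1% of genes were lower. In the Low state, then, Hoxa2 and Hoxc13 lay above the median of all genes by 1.63 and 1.90, and in the High state Hoxa2 did not differ from it beyond counting error (0.21, -0.31 to 0.71) and neither did Hoxc13 (0.68, -0.05 to 1.38).

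Hoxa3 and Hoxa5 had the higher value in High, with intervals that overlapped between the states. Hoxa3 was at -0.40 (-1.28 to 0.46) in High, above 89.4% of genes, and at -1.73 (-2.83 to -0.73) in Low, at the median. Hoxa5 was at -0.81 (-1.62 to -0.03) in High, above 83.3% of genes, and at -1.27 (-2.24 to -0.35) in Low, above 62.1%. Among the members with reads in both libraries of a state and at least 10 in all, Hoxb4 stood highest in both states, at 0.94 (-0.33 to 2.35), above 96.8% of genes, and at 0.17 (-1.17 to 1.58), above 91.4%. Its few reads (18 against 8, and 13 against 9) keep these intervals wide. Hoxb4 in both states, and Hoxa3 and Hoxa5 in Low, had a mean under 1 CPM. They are ranked here against measured genes without being measured themselves. The signs of these ratios depend on the scaling: under TMM, Hoxa3, Hoxa5 and Hoxc13 in High and Hoxa2 and Hoxa5 in Low turned from lower to higher in the pulldown.

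The machinery that acts with or on Hox genes was read in these cells. The lists below were searched for called genes by the same rule, and none had a called gene in High against Low, in whole-cell RNA or in the pulldown. Between the whole-cell libraries only 0.111% of all measured genes were called higher and 0.133% lower. A count of 0 there is near the background and is not a result about these lists. For the pulldown pair the shares were 3.43% higher and 2.90% lower, and each list had between 7 and 27 measured genes. Whether 0 calls differ from those shares was not tested. All 9 TALE cofactors were matched and 8 were measured in whole-cell RNA: Meis2, a partner of Hox proteins, had 3561 and 3198 reads in High and Low, and 1407 and 1532 reads in the High and Low pulldowns. The median log2 ratio of this list was -0.07. In the pulldown 4 of its 7 measured genes were lower than whole-cell RNA in both states, among them Meis2 (-1.57 in High and -1.42 in Low), Meis3 and Pknox1, against 60.6% of all genes. None was called higher, against 1.42% of all genes, so neither count is a result about the cofactors.

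Of 31 genes of the Polycomb complexes, 30 were measured in whole-cell RNA, with a median log2 ratio of 0.04 and every one within 1.5-fold. Pcgf3 had 3630 and 3068 reads there and Phc3 had 3553 and 3367, and in the pulldowns Pcgf3 had 2269 and 2480 and Aebp2, an accessory subunit, 2036 and 2777. In the pulldown 16 of 30 were lower than whole-cell RNA in both states and none higher, led by Phf1 (540 and 519 whole-cell reads, 7 and 24 pulldown reads), Pcgf1, Pcgf2 and Phc2. Phf1 is an accessory subunit of Polycomb repressive complex 2, and its ratios were -6.50 and -4.79. The 11 genes of the MLL complexes and the H3K27 demethylases were all measured, at a median of -0.00 in whole-cell RNA. Kmt2a, the MLL1 methyltransferase, had 6651 and 7274 reads there and 2690 and 4889 in the pulldowns, and Ash1l had 6863 and 6335, and 4096 and 7258. Of these, 6 of 11 were lower in the pulldown in both states: Kmt2b, Men1, Wdr5 and Kdm6b had the largest ratios in High. These shares are near the 60.6% of all genes.

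In the retinoic acid pathway 11 of 18 genes were measured in whole-cell RNA, with a median log2 ratio of -0.08. Rarg, a retinoic acid receptor, had 3088 and 2909 reads, and Rxra, the partner of the receptors, 2767 and 2336. Cyp26b1, which degrades retinoic acid, led the list in the pulldowns with 1283 and 1704 reads, followed by Aldh1a1, an enzyme of retinoic acid synthesis, with 901 and 1076. Aldh1a1 had 366 and 456 whole-cell reads, and its pulldown to whole-cell log2 ratios were 1.07 and 0.88, not called. In the pulldown 5 of 10 were called lower in both states, against 60.6% of all genes, among them Rara (-3.40 and -2.52), Rarg (-3.33 and -3.35), Rdh10, an enzyme of retinoic acid synthesis (-2.44 and -1.63), and Rxra. Of 12 matched flanking genes 7 were measured, led by Cbx5 with 4636 and 4525 whole-cell reads and 2262 and 4956 pulldown reads, and 4 of the 7 were called lower in the pulldown in both states, near the same 60.6%: Smug1, Hibadh, Calcoco1 and Skap2, which had 1702 and 1678 reads in whole-cell RNA.

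Transcription factors outside the Hox clusters that mark head or limb were read as well. Of 33 head and pharyngeal arch factors 19 were measured in whole-cell RNA, 15 with a positive and 4 with a negative log2 ratio, at a median of 0.14. Over all 13519 measured genes 6520 were positive and 6999 negative, at a median of -0.01. None of the factors was called, and with 1 library in each state the spread of such a sign count is unknown. Emx2, a forebrain and pectoral girdle gene, had 839 and 730 reads in High and Low whole-cell RNA. In the pulldowns Emx2 had 337 and 567 reads and Six4 had 210 and 362. In the pulldown 9 of 17 were called lower in both states, not above the 60.6% of all genes, with Lhx8 (-4.86 and -2.74), Barx1 (-4.43 and -4.88), Dlx5 (-3.99 and -1.79) and Tfap2a (-3.67 and -3.57) at the largest ratios in High. Of 22 limb and trunk factors 10 were measured, led by Prrx1, a mesenchymal gene of limb and face, with 9765 and 9498 reads, and Twist1 with 2141 and 1833, and in the pulldowns by Prrx1 (6566 and 9190) and Tbx15 (1534 and 2316). In the pulldown 4 of 8 were called lower in both states, again not above 60.6%: Twist2 (-6.02 and -4.67), Prrx2, Tbx3 and Twist1. Picked from the list after their values were seen, the forelimb and hindlimb selectors Tbx5 and Tbx4 had 0 reads in every library, and Pitx1, the hindlimb gene, had 1 read in High whole-cell RNA and 0 in Low. Others of that list were read, among them Tbx3 (896 and 841 whole-cell reads) and Tbx18 (326 and 248). In the head list Otx2, Tfap2b and Hmx2 had 0 reads in every library as well. Genes without reads thus do not set the limb list apart from the head list.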

How the data were processed

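Fragment counts for each Ensembl gene were deposited for whole-cell RNA and for the fibrillarin pulldown. The submitters' processing notes name cutadapt 2.4, STAR 2.6.0c, HTSeq 0.9.1, StringTie 1.3.4 and the build GRCm38. The sources used here do not state the annotation, the counting mode or the strand setting. Summary lines that name no gene held 45.0% and 43.8% of fragments in High and Low whole-cell RNA and 50.0% and 45.4% in the pulldowns, and were left out. The columns of the pulldown table were matched to samples by the state in their names. Hox genes were found by symbol, and spans and promoters came from RefSeq. Ratios were scaled by TMM (edgeR 4.0.16, R 4.3.3) for High against Low and by library totals for pulldown against whole-cell RNA. Ratio intervals are exact (Clopper-Pearson) and level intervals exact Poisson, at 95%; the difference of ratios has a normal interval. Genes named were every Hox gene with a mean of at least 1 CPM in a comparison, the others by counts, and from each list the called genes (at most 4) or the 2 with most reads. The members, lists and tests were chosen with earlier results of these data known. Alternatives were library totals, DESeq2 1.42.0 size factors, totals without abundant genes, other filters and a 1.5-fold line. Some genes of the Hox set and the lists are not reported here by name.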

Additional observations from a re-analysis of the deposited data

Results flagged for a closer look

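For 3 Hox genes the log2 ratio of High to Low differed between the pulldown and whole-cell RNA beyond counting error. The difference, pulldown minus whole-cell, was -1.46 for Hoxa2, -1.26 for Hoxc13 and 1.68 for Hoxa3. The interval behind each covers counting error alone, since each group has 1 library, and 56.7% of all genes that reached 10 reads in all 4 libraries had an interval without 0.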

How the results depend on the processing

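No Hox gene was called in High against Low in whole-cell RNA under any of the scalings, filters and fold lines run. In the pulldown, dropping the filter on low counts gave 2 higher genes in place of 0, and a 1.5-fold line gave 1 lower gene in place of 0. Hox genes measured fell from 5 to 1 in whole-cell RNA at a mean of 5 CPM, and from 2 to 0 in the pulldown, where a mean of 0.5 CPM gave 6. For pulldown against whole-cell RNA, 1 gene was lower in both states: TMM, totals without the 2 mitochondrial ribosomal RNAs, totals without the 20 most abundant genes and a mean of 5 CPM each gave 0, and no filter gave 2; beyond the shift that each scaling adds to all genes, the cause was not tested. The number measured there was 3, with 5 at 0.5 CPM and 0 at 5 CPM. The share of Hox reads in Hoxa was 82.1%, 81.3%, 81.1% and 80.8% in the High and Low whole-cell and High and Low pulldown libraries per kilobase of gene span, an alternative chosen after seeing the data because the planned one, per kilobase of annotated exon, was not run. The 5 differences of ratios kept their side of 0 with library totals. Of the 45 log2 ratios of single genes under another scaling, 21 moved by less than their counting error and 17 moved by more. The remaining 7 also moved by more than their counting error and lost the call. All that moved by more were ratios of pulldown against whole-cell RNA. Under library totals the median of all genes in High against Low pulldown moved by -0.29. No paired analysis was possible because each group has 1 library. For the same reason no library could be left out. Most Hox genes lie near the floor of 3 reads, which limits every statement on their absence.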
